A study of Mus musculus with 19 samples.

Results

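ATF4 is the transcription factor through which cells answer a shortage of amino acids, and 10 genes were followed here, Atf4 itself and 9 of its known targets (Asns, Psat1, Phgdh, Mthfd2, Chac1, Trib3, Ddit3, Atf5 and Sesn2). They were found by taking every probe whose annotated symbol is one of these names. That gave 14 probes for 10 of the 16593 genes with a named probe. Hepatic RNA came from 19 male Swiss-Webster mice of 7 weeks, 1 mouse per Illumina MouseRef-8 BeadChip array, on which transcripts are read as the brightness of beads that carry matching probes. The vehicle DMSO had been given to 6 mice, IDFP to 8 mice at 10 mg/kg, and AM251 at 10 mg/kg ahead of the same dose of IDFP to 5 mice, all by intraperitoneal injection and with livers taken 4 h later. IDFP inhibits the main enzymes that degrade endocannabinoids, and AM251 is an antagonist of the cannabinoid receptor CB1. All groups had been fasted before treatment according to the study's methods. There was no group given AM251 without IDFP.

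When an amino acid runs short, uncharged transfer RNA activates the kinase GCN2, which phosphorylates the initiation factor eIF2. Most translation then slows, whereas that of Atf4 mRNA rises, and other kinases of eIF2 answer unfolded proteins, viral RNA or a lack of heme in the same way. The ATF4 protein, usually with a partner of the C/EBP family, binds a composite element in its target genes and raises enzymes that make amino acids, transporters that import them and transfer RNA synthetases that load them. Because control lies largely in translation, the amount of Atf4 mRNA is not a measure of ATF4 protein, which was not measured here. In the liver this program also responds to fasting and to the protein content of food.

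A core of the composite element, TGATGNAA, was searched on both strands of RefSeq promoter windows of build GRCm38.p6 that hold the 250 bases before a transcript's start and the 50 from the start on. It occurred in windows of 3 of the 10 genes (Asns, Chac1 and Trib3), against 4.51% of all genes with a window and 3.11% of the tested genes with one. The Asns gene lies on the minus strand at chr6:7675165-7693209 and its match starts at base -23, counted from the transcript's start. The Chac1 gene lies on the plus strand at chr2:119351242-119354326, and its match, read on the other strand, starts at base -193. The Trib3 match lies past the start and is not shown. Stretches of both promoters are given because Asns and Chac1 are the genes with a match whose transcripts fell after IDFP. They read 5′ to 3′ on the gene's own strand, and capitals mark the match.
Asns, chr6:7693210-7693262, minus strand: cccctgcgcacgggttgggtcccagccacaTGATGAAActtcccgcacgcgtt
Chac1, chr2:119351019-119351086, plus strand: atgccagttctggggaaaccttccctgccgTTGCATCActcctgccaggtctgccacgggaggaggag
A match is a description of these letters, and binding was not measured. The windows of Mthfd2, Psat1, Phgdh, Atf4, Ddit3, Atf5 and Sesn2 held none, whether or not the transcript changed. For Mthfd2, on the minus strand at chr6:83305704-83326011, the only window (chr6:83317555-83317854) lies inside the gene. The promoter at that gene's annotated start was therefore not searched.

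The arrays were alike in depth of detection, with 8997 to 9157 genes detected on each. Bright hepatocyte transcripts (Ttr, Apoa1, Serpina1c and Cps1) did not pass the test in any comparison, nor did Alb, whose probe was dim (mean signal 437 in DMSO). AM251/IDFP mouse 1 stood apart. All 6 acinar markers of the pancreas on the array (Cpa1, Cpb1, Prss2, Ctrb1, Cela2a and Zg16) had their highest value there, and their summed deposited intensity was 19697, against 42.8 to 201 in the other AM251/IDFP mice, 0.384 to 155 in IDFP and -35.6 to 95.1 in DMSO. AM251/IDFP mouse 3 had the highest summed neutrophil markers, 6600.1 over 7 genes (mostly S100a8 and S100a9), against 1122 to 1806 in the other AM251/IDFP mice, 696 to 1410.4 in IDFP and 384 to 1223 in DMSO. S100a8, S100a9 and Retnlg were the neutrophil markers that were higher in AM251/IDFP than in DMSO (3 of 4 tested), and Camp, Mpo and Elane were not detected often enough to be tested. Of the other liver cell types, single markers passed (Clec4f and Timd4 of Kupffer cells and Lrat of stellate cells lower, and Lyve1 of endothelium higher, with AM251 than with IDFP; Clec4g of endothelium and Cd3e of T cells lower with IDFP than with DMSO, and Clec4g also lower with AM251/IDFP than with DMSO), while the tested markers of cholangiocytes (Krt7) and erythroid cells (Alas2) did not. IDFP mouse 4 had high values of Krt19, a cholangiocyte marker (389 deposited units against 36.6 on the next array), and of Des, a stellate marker (535 against 45.9). Without it, the same numbers of the 10 genes passed in each comparison (5, 3 and 1). The part of other cells in the results was not tested. Comparisons of AM251/IDFP with IDFP and reversals are also given without AM251/IDFP mice 1 and 3. In RNA of whole liver, fewer cells of a type and less RNA per cell cannot be told apart. Signals below are intensities after background correction, which lie 41.6 to 41.7 units above the deposited values for values over 100. A probe counts as detected above 17.5 to 17.6 deposited units.

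Among the enzymes of amino acid and one-carbon synthesis, Asns fell 7.04-fold after IDFP, Mthfd2 3.81-fold and Psat1 3.69-fold. Chac1 fell 4.04-fold and Atf4 itself 1.49-fold. The targets that regulate transcription and signaling (Trib3, Ddit3, Atf5 and Sesn2) and the enzyme Phgdh did not pass the test, with log2 differences between -0.44 and 0.11. In all, 5 of 10 genes were lower and 0 higher at an adjusted p under 0.05 from limma, where 9.53% of the 9346 genes tested were lower and 6.75% higher. The median log2 difference of the 10 genes was -0.51, beside 0.00 for all tested genes. The study itself had singled out Asns and Psat1 from these arrays, so their fall is not independent evidence of a direction. By PCR the study also reported both lower after IDFP, in a larger set of samples from several experiments, this one among them.

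**Figure D1:**
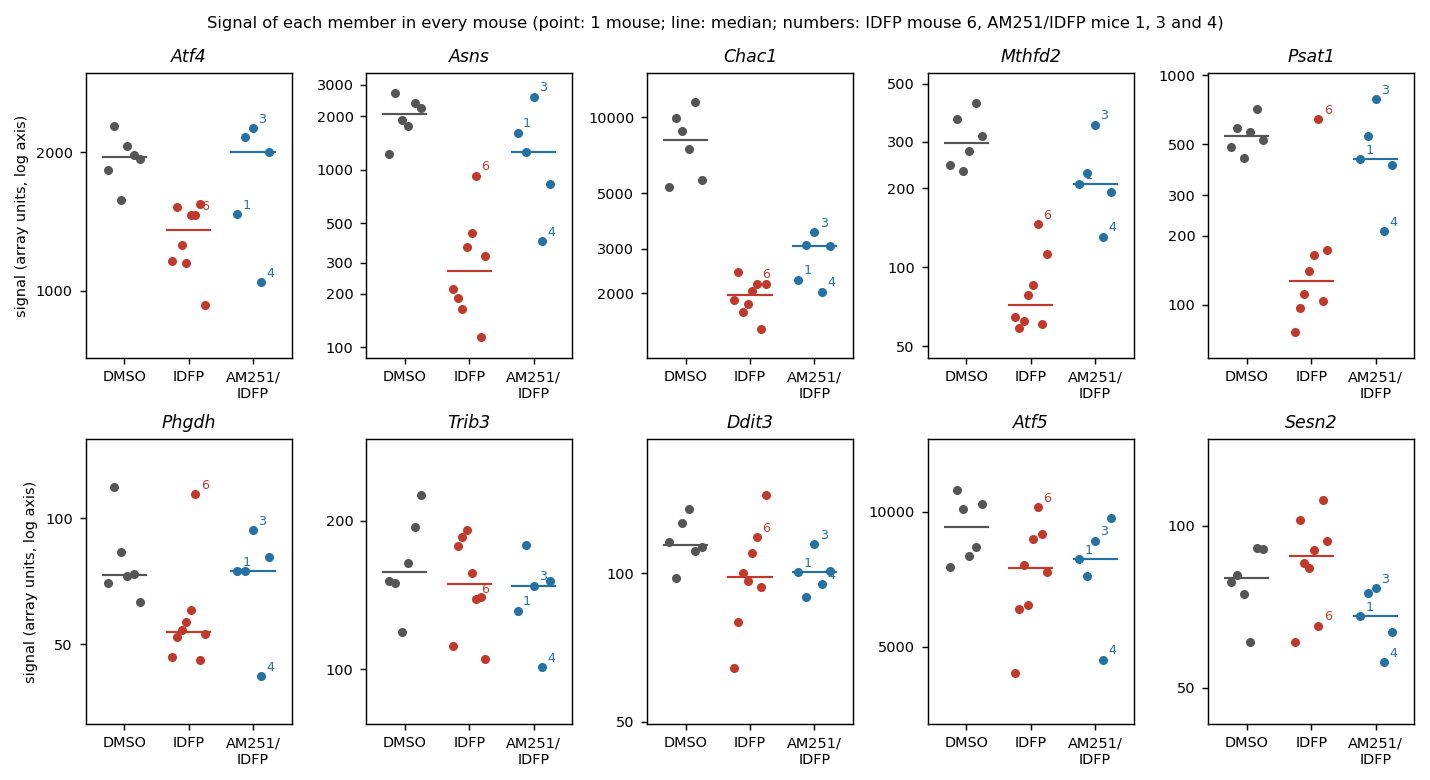
Signal of the 10 genes in every mouse, in array units on a log axis, with a panel per gene, points for mice and a line at the group median. IDFP mouse 6 and AM251/IDFP mice 1, 3 and 4 are numbered. For Asns, Chac1, Mthfd2 and Atf4 all 8 IDFP points lie under all 6 DMSO points, and for Chac1 the 5 AM251/IDFP points do too. How common such separation was among all tested genes was not counted, here or for the single genes below.

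Asns encodes asparagine synthetase, which makes asparagine from aspartate with glutamine as the nitrogen donor. Its signal in DMSO mice had a lowest value of 1222, a median of 2060.4 and a highest of 2682. In IDFP mice the lowest was 114, the median 269 and the highest 922. AM251/IDFP mice 1 to 5 had 1610.3, 1264, 2566, 396 and 833. Every IDFP mouse was below every DMSO mouse, IDFP mouse 6 was the highest of its group, and 3 of the 5 AM251/IDFP mice were above all IDFP mice while mice 4 and 5 lay inside the IDFP range. The log2 difference was -2.81 (SE 0.40, adjusted p = 8.77e-05 from limma) for IDFP vs. DMSO. It was 2.00 (SE 0.43, adjusted p = 0.00439) for AM251/IDFP vs. IDFP, and -0.82 (95% interval -1.76 to 0.12, adjusted p = 0.273) for AM251/IDFP vs. DMSO. The array carries 2 dimmer probes of Asns, of which 1 fell by 2.28 log2 units after IDFP and was 1.83 higher with AM251, and the other fell by 1.60 log2 units and was 1.05 higher, so all 3 probes moved alike. The dimmest was detected in only 1 of 8 IDFP mice, and background limits how large its fall could be.

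Psat1 and Phgdh encode successive enzymes of the route from a glycolytic intermediate to serine. Psat1 had a lowest signal of 434, a median of 544 and a highest of 709.5 in DMSO mice, and 76.4, 126 and 643 in IDFP mice. The highest IDFP value belonged to mouse 6, within the DMSO range, and the next was 174, so 7 of 8 IDFP mice were below all DMSO mice. AM251/IDFP mice 1 to 5 had 431, 542, 783, 209 and 406, each above the IDFP mean, with mouse 3 above all DMSO mice. After IDFP, Psat1 fell by 1.88 log2 units (SE 0.35, adjusted p = 0.000942 from limma). AM251 left it 1.56 above IDFP (SE 0.37, adjusted p = 0.009). The difference left between AM251/IDFP and DMSO was -0.32 (95% interval -1.14 to 0.50, adjusted p = 0.675).

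Phgdh was dim throughout and was detected on 12 of 19 arrays, in 6 of 6 DMSO but 2 of 8 IDFP mice. Its lowest, median and highest signals were 63.2, 73.2 and 119 in DMSO mice and 45.9, 53.4 and 114 in IDFP mice. AM251/IDFP mice had 74.5, 74.7, 93.5, 42.0 and 80.9. As for Psat1, 7 of 8 IDFP mice were below all DMSO mice and mouse 6 was not. The log2 difference of -0.44 (95% interval -0.85 to -0.04) did not pass the test (adjusted p = 0.125 from limma), but did without IDFP mouse 6 (-0.58, adjusted p = 0.0162).

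Mthfd2 encodes a mitochondrial enzyme of folate metabolism that supplies one-carbon units for purines and other products. Its signals were 233, 297 and 421 (lowest, median, highest) in DMSO mice and 58.9, 71.7 and 146 in IDFP mice. All 8 IDFP mice were below all DMSO mice, with mouse 6 again the highest, and 1 of them was not detected. AM251/IDFP mice had 207, 229, 349, 131 and 194, and 4 of the 5 were above all IDFP mice. After IDFP, Mthfd2 fell by 1.93 log2 units (SE 0.22, adjusted p = 7.94e-06 from limma), and the level with AM251 was 1.41 above that of IDFP (SE 0.23, adjusted p = 0.000606). The difference of -0.52 from DMSO did not pass the test (95% interval -1.03 to -0.01, adjusted p = 0.19).

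Chac1 encodes an enzyme that cleaves glutathione and is induced by ATF4 together with CHOP, the protein of Ddit3. Signals were 5289, 8160.4 and 11522 (lowest, median, highest) in DMSO mice and 1437, 1963 and 2426 in IDFP mice, which lay close together. AM251/IDFP mice had 2258, 3106, 3494, 2026 and 3089.9, so that 3 of 5 were above all IDFP mice and all 5 were below all DMSO mice. Chac1 fell by 2.01 log2 units (SE 0.17, adjusted p = 4.52e-07 from limma). With AM251 the signal was 0.50 higher (SE 0.18, 95% interval 0.13 to 0.88, adjusted p = 0.0803), which did not pass the test. Chac1 was the only one of the 10 genes past the threshold between AM251/IDFP and DMSO, with a difference of -1.51 (SE 0.19, adjusted p = 0.00015).

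Atf4 mRNA fell less. DMSO mice had 1576, 1956 and 2287 (lowest, median, highest) and IDFP mice 929.9, 1357 and 1544, so that the groups did not overlap but nearly met. AM251/IDFP mice had 1467, 2155, 2257, 1043 and 2002, with mice 2, 3 and 5 above all IDFP mice and mice 1 and 4 inside the IDFP range. Atf4 fell by 0.58 log2 units (SE 0.15, adjusted p = 0.0137 from limma). The difference of 0.41 with AM251 did not pass the test (95% interval 0.07 to 0.75, adjusted p = 0.121), nor did that of -0.17 from DMSO (95% interval -0.53 to 0.19, adjusted p = 0.601).

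Trib3 and Ddit3 are markers of this pathway under stronger stress. Trib3 encodes a pseudokinase that inhibits Akt and ATF4, and its signals were 119, 158 and 225 in DMSO mice, 105, 149 and 192 in IDFP mice, and 132, 178, 148, 101 and 151 in AM251/IDFP mice. Ddit3 had 97.7, 114 and 135 in DMSO, 64.4, 98.4 and 144 in IDFP, and 101, 89.7, 115, 95.0 and 101 in AM251/IDFP mice. The groups overlapped widely for both genes. Log2 differences after IDFP were -0.15 (95% interval -0.48 to 0.19, adjusted p = 0.581 from limma) for Trib3 and -0.24 (95% interval -0.52 to 0.04, adjusted p = 0.242) for Ddit3. A dimmer probe of Ddit3 gave -0.27, which did not pass either.

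Atf5 encodes a factor of the same family whose translation is controlled like that of Atf4, and Sesn2 encodes a leucine sensor that restrains mTORC1. Atf5 had signals of 7528, 9238 and 11164 in DMSO, 4375, 7487 and 10241 in IDFP, and 7827, 7202, 8612, 4674 and 9691 in AM251/IDFP mice. Sesn2 had 60.8, 79.9 and 90.8 in DMSO, 60.9, 87.9 and 111 in IDFP, and 67.9, 75.0, 76.6, 55.8 and 63.5 in AM251/IDFP mice, so that all 5 of the last were below the IDFP mean. After IDFP the log2 difference was -0.34 (95% interval -0.71 to 0.02, adjusted p = 0.189 from limma) for Atf5 and 0.11 (95% interval -0.16 to 0.38, adjusted p = 0.615) for Sesn2, the only gene of the 10 with a value above 0. The second probe of Sesn2 was detected on 0 arrays and was not tested.

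**Figure D2:**
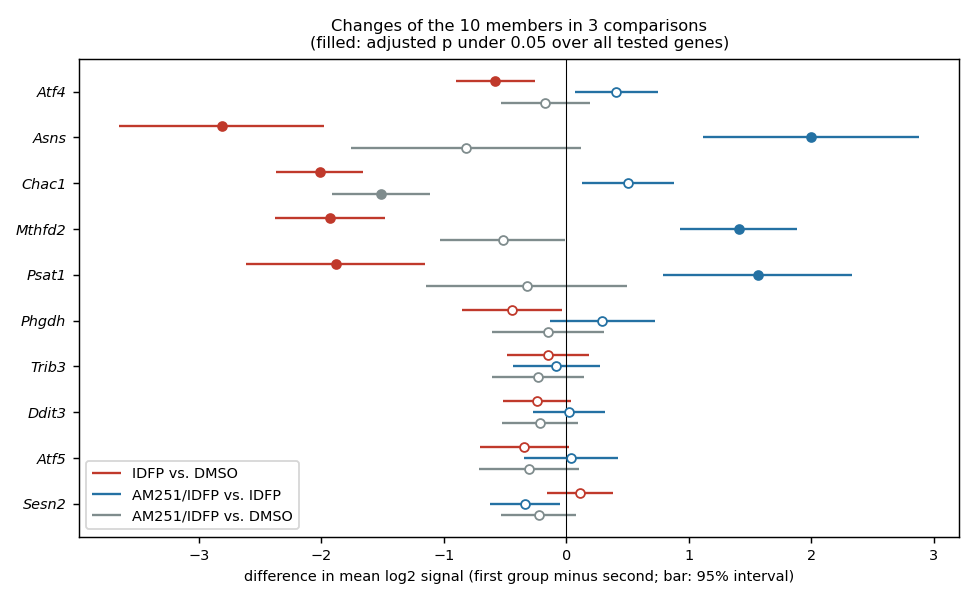
Differences in mean log2 signal of the 10 genes in each comparison between groups, with 95% intervals from limma. Filled points passed an adjusted p of 0.05: 5 genes for IDFP vs. DMSO, Asns, Mthfd2 and Psat1 for AM251/IDFP vs. IDFP, and Chac1 for AM251/IDFP vs. DMSO.

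With AM251 before IDFP, 3 of the 10 genes were higher than with IDFP and 0 were lower, where 5.97% of tested genes were higher and 4.85% lower. Against DMSO, 1 of 10 was lower and 0 were higher, where 6.22% of tested genes were lower and 3.66% higher. The median log2 difference of the 10 genes was 0.35 for the former and -0.27 for the latter comparison, beside -0.01 for all tested genes in both. The comparisons share groups, so that a chance deviation of the IDFP mice enters the fall and the rise alike. Without AM251/IDFP mouse 1, which carried the pancreatic transcripts, Asns (1.86, adjusted p = 0.0154 from limma), Mthfd2 (1.42, adjusted p = 0.0017) and Psat1 (1.56, adjusted p = 0.0203) still passed. Without mouse 3 they also passed, with adjusted p-values of 0.0199, 0.00258 and 0.0364. Without both, only Mthfd2 did (1.18, adjusted p = 0.0137), whereas Asns (1.42, adjusted p = 0.0904) and Psat1 (1.28, adjusted p = 0.107) did not. Calls were fewer among all genes too, with 2.22% of tested genes higher and 1.49% lower in that fit. AM251/IDFP mouse 4 had the lowest signal of its group for all 10 genes except Ddit3, where mouse 2 was lowest. Without mouse 4, Atf4 (0.59, adjusted p = 0.0118) and Chac1 (0.61, adjusted p = 0.0437) passed as well, making 5 of 10. Among all tested genes 891 were called in that fit, higher or lower, beside 1011 with every mouse.

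The degree of reversal was compared between the genes, and the only pairs that passed a test were Mthfd2 and Asns, each against Chac1. Reversal is the share of the difference between IDFP and DMSO that was absent with AM251, from group means of the signals: 0% is the IDFP mean and 100% the DMSO mean. It was computed for the 5 genes that fell. On log2 signals, in place of linear ones, Chac1 was reversed by 24.9%. On linear signals, Psat1 had 78.9% (SE 27.6), Atf4 74.8% (SE 38.2), Mthfd2 61.1% (SE 17.8), Asns 58.9% (SE 23.3) and Chac1 13.6% (SE 5.27). Chac1 had the lowest value, and the pairs are compared below. In single AM251/IDFP mice 1 to 5 the reversal of Chac1 was 4.90, 18.7, 25.0, 1.14 and 18.4%. For Mthfd2 it was 54.5, 64.3, 117, 20.9 and 48.6%, above Chac1 in each of the 5 mice. Asns had 75.4, 54.8, 132, 3.21 and 29.1%, and Psat1 had 67.0, 97.6, 164, 5.52 and 60.0%. Both were also above Chac1 in each of the 5 mice, whereas Atf4 was below it in mouse 4. Atf4 was the most variable, with 24.7, 133, 149, -42.2 and 109%. Mouse 4 was the lowest and mouse 3 the highest for all 5 genes.

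**Figure D3:**
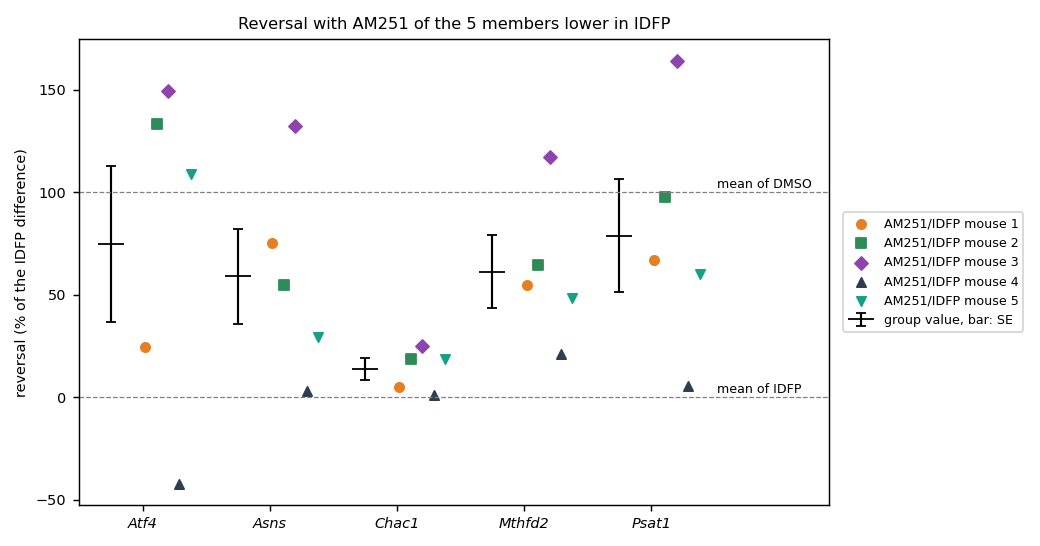
Percent reversal with AM251 of the 5 genes that were lower after IDFP, with 0% at the IDFP mean and 100% at the DMSO mean. Bars give the value from group means with its SE, and symbols the AM251/IDFP mice: those of Chac1 lie between 1.14 and 25.0%, those of Mthfd2 between 20.9 and 117%.

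The 10 pairs of these genes were compared within arrays, with a two-sided exact permutation test over the 1287 ways to divide the IDFP and AM251/IDFP mice, in which the scale set by the DMSO and IDFP means is taken as known. The smallest p this test can give is 0.000777. Of the pairs, 2 passed after Benjamini-Hochberg adjustment over the 10. Mthfd2 was reversed by 47.5 percentage points more than Chac1 (95% interval 13.3 to 81.8, exact permutation p = 0.00155, adjusted p = 0.0155). Asns was reversed by 45.3 points more than Chac1 (exact permutation p = 0.00932, adjusted p = 0.0466), with a 95% interval of -7.87 to 98.5 that includes 0 once the error of the scale is counted, and on log2 signals this pair did not pass (adjusted p = 0.104, exact permutation test). Psat1 exceeded Chac1 by 65.3 points (95% interval 4.56 to 126, exact permutation p = 0.0443, adjusted p = 0.148) and Atf4 exceeded it by 61.2 points (95% interval -25.7 to 148, exact permutation p = 0.0598, adjusted p = 0.15), and neither passed. Among Asns, Mthfd2, Psat1 and Atf4 no pair passed, and the intervals were wide. That of Asns minus Mthfd2 ran from -25.7 to 21.3 points, that of Mthfd2 minus Psat1 from -46.7 to 11.2, and that of Atf4 minus Asns from -61.7 to 93.4. Without IDFP mouse 6, which had the high Psat1 signal, 5 pairs passed, among them Asns minus Psat1 (-21.2 points, adjusted p = 0.0253, exact permutation test) and Mthfd2 minus Psat1 (-19.5 points, adjusted p = 0.0189). Without AM251/IDFP mice 1 and 3, 0 pairs passed (2 had an unadjusted p under 0.05). With so few mice, a pair at the smallest p possible could not pass by itself after adjustment. Mthfd2 and Chac1 had an adjusted p of 0.0606 there (exact permutation test), so the count of pairs cannot show that the difference was lost. Reversal without these mice was 44.6% for Mthfd2, 29.0% for Asns, 12.7% for Chac1, 54.4% for Psat1 and 66.7% for Atf4. Chac1 then still had the lowest value. Asns minus Chac1 no longer passed when any 1 of 10 mice was left out (adjusted p of 0.0631 to 0.121, exact permutation test), among them AM251/IDFP mice 1, 2 and 3. Without mouse 1 alone, Mthfd2 and Chac1 differed by 47.0 points (exact permutation, adjusted p = 0.0404) and Asns and Chac1 by 39.0 (adjusted p = 0.111).

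Whether mice with more Atf4 mRNA had more of its targets was examined within groups, over 6 DMSO and 8 IDFP mice, by 18 relations. None passed the threshold (0 by Pearson's r and 0 by Spearman's rho, exact permutation tests with adjustment over the 18, and 0 had an unadjusted p under 0.05). With 6 DMSO mice, even a perfect rank relation could not pass by itself after adjustment. The absence of calls therefore does not show an absence of relations. In DMSO mice, r was between -0.54 (Ddit3) and 0.70 (Psat1), and above 0 for 8 of 9 genes. For Psat1 the exact permutation p was 0.117 for r and 0.0583 for rho (0.83), with adjusted values of 0.911 and 0.806, and r was 0.55 without the 2 mice farthest from the median of Atf4. In IDFP mice, r was between -0.28 (Ddit3) and 0.44 (Trib3). It was -0.07 for Asns and -0.09 for Chac1. IDFP mouse 6, highest in its group for Asns, Mthfd2 and Psat1, had an Atf4 signal of 1462, inside the range of its group. IDFP mouse 8 had the lowest Atf4 (929.9), whereas its Asns signal of 325 and its Mthfd2 signal of 112 were above the group medians.

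Profiles were also compared over all 19 arrays by the root mean square difference of log2 signals, each gene centred on its DMSO mean, a measure that the group differences themselves dominate. Nearest to Asns among genes outside the 10 were Inhbe, which encodes a subunit of activin E (0.80), Dnajc12, a cochaperone (0.84), and Lrrc75a (0.92). Mthfd2 (0.75) and Psat1 (0.77) were nearer. Dnajc12 fell by 2.12 log2 units after IDFP (SE 0.18) and Lrrc75a fell by 1.85 log2 units (SE 0.19). A gene near Asns on this measure has to fall after IDFP, so these falls follow from the choice of genes. Nearest to Atf4 were Nfyb (0.20), Pawr (0.20) and Litaf (0.21), and none of its own targets was as near, with Phgdh at 0.33 the nearest of them.

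Other genes of the pathway were described by lists. Among the partners of ATF4 and other stress regulators and secreted targets, 4 of 14 tested genes were lower and 4 higher after IDFP (9.53% and 6.75% of all tested genes), with a median log2 difference of -0.06 after IDFP. The promoter motif given above occurred in 7 of the 16 listed genes with a window, beside 4.51% of all genes with one. Among genes with a window in the lists below, it occurred in 5 of 12 synthetases and 2 of 11 amino acid and one-carbon enzymes. It occurred in 2 of 8 transporters and in 0 of 6 eIF2 kinases and partners. Fgf21, a hormone of the fasted liver, fell by 4.76 log2 units (SE 0.44, adjusted p = 1.28e-06 from limma), from a mean signal of 6213 in DMSO to 252 in IDFP. With AM251 it was 1.50 above IDFP (SE 0.47, adjusted p = 0.0429), at a mean of 765. The difference left from DMSO was -3.26 (SE 0.50, adjusted p = 0.000779). Inhbe fell by 3.08 log2 units (SE 0.26, adjusted p = 4.52e-07), and AM251 left it 1.31 above IDFP (SE 0.28, adjusted p = 0.00414). Its difference from DMSO was then -1.77 (SE 0.29, adjusted p = 0.00153). Without AM251/IDFP mice 1 and 3 neither passed for AM251/IDFP vs. IDFP, at 0.91 for Fgf21 (adjusted p = 0.382 from limma) and 1.07 for Inhbe (adjusted p = 0.0731). Both were still lower than in DMSO, at -3.85 (adjusted p = 0.00117) and -2.02 (adjusted p = 0.00401). Jdp2, a repressor of the AP-1 family, rose by 0.97 log2 units (SE 0.18, adjusted p = 0.000916). With AM251 it differed from IDFP by -0.47 (adjusted p = 0.13), which did not pass with or without AM251/IDFP mice 1 and 3. Eif4ebp1 and Nupr1 were also lower and Cebpb, Atf3 and Herpud1 also higher, genes that were chosen for naming after their values were seen.

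Of the cytosolic transfer RNA synthetases, which ATF4 raises, 7 of 16 tested genes were lower and 0 higher after IDFP (9.53% and 6.75% of all tested genes). With AM251, 8 were higher and 0 lower than with IDFP (5.97% and 4.85% of all tested genes), but without AM251/IDFP mice 1 and 3 only 1 was higher (2.22% of all tested genes), namely Lars. Iars fell by 0.70 log2 units (SE 0.11, adjusted p = 0.000295 from limma), Gars fell by 0.64 log2 units (SE 0.11, adjusted p = 0.000628) and Lars fell by 0.61 log2 units (SE 0.12, adjusted p = 0.00163). With AM251 they were higher than with IDFP by 0.59, 0.39 and 0.72, and without mice 1 and 3 the differences were 0.49 (adjusted p = 0.0621 from limma), 0.29 (adjusted p = 0.3) and 0.59 (adjusted p = 0.0135). Several synthetases, these included, had been picked by the study on these arrays, so the count is not independent evidence. The study's PCR, in a larger set of samples, covered Aars and Rars, and both were reported lower after IDFP. The list's median log2 difference was -0.32 after IDFP. The motif occurred in 5 of the 12 listed genes with a window, beside 4.51% of all genes with one.

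Of the other enzymes of amino acid and one-carbon metabolism, 0 of 10 tested genes were lower and 2 higher after IDFP at an adjusted p under 0.05 from limma, where 9.53% of all tested genes were lower and 6.75% higher. Got1, a transaminase of aspartate, rose by 1.06 log2 units (SE 0.16, adjusted p = 0.000131 from limma), and Cbs, which makes cystathionine from homocysteine, rose by 0.55 log2 units (SE 0.16, adjusted p = 0.0239). With AM251 neither passed against IDFP, at 0.41 for Got1 (adjusted p = 0.13) and -0.02 for Cbs (adjusted p = 0.962). Without AM251/IDFP mice 1 and 3 the values were 0.37 and -0.01, and neither passed. Got1 with AM251 was 1.47 above DMSO (adjusted p = 9.89e-05). Aldh18a1, an enzyme of proline synthesis, had a difference of -0.50 that did not pass (adjusted p = 0.0527). Of the transporters of amino acids, 1 of 8 tested was lower and 0 higher after IDFP (beside the same 9.53% and 6.75%), the glycine transporter Slc6a9, which fell by 0.77 log2 units (SE 0.17, adjusted p = 0.00352 from limma), while the partners Slc7a5 (-0.74, adjusted p = 0.0809) and Slc3a2 (-0.63, adjusted p = 0.0863) did not pass. With AM251, Slc6a9 was 0.58 above IDFP (SE 0.18, adjusted p = 0.0407 from limma), and 0.55 above it without AM251/IDFP mice 1 and 3 (adjusted p = 0.188). In the fit without these mice, 1 of the 10 enzymes (Aldh18a1) and 2 of the 8 transporters (Slc6a9 and Slc7a5) were lower after IDFP, beside 9.64% of all tested genes.

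Among eIF2 kinases and their partners, 2 of 6 tested genes were lower and 2 higher after IDFP (beside 9.53% and 6.75% of all tested genes). Eif2ak2, which encodes the kinase PKR, fell by 0.89 log2 units (SE 0.13, adjusted p = 7.8e-05 from limma), and AM251 left it 0.58 above IDFP (SE 0.13, adjusted p = 0.00709). The study had already listed Eif2ak2 from these arrays, so its fall and rise are not independent evidence. Nck1, an adaptor that binds eIF2, fell by 0.63 log2 units (SE 0.13, adjusted p = 0.00249), and with AM251 its level was 0.98 above IDFP (SE 0.14, adjusted p = 0.000193). Without AM251/IDFP mice 1 and 3, Nck1 still passed in the latter comparison (0.80, adjusted p = 0.00776 from limma) and Eif2ak2 did not (0.51, adjusted p = 0.0668). Impact, an inhibitor of GCN2, rose by 0.44 log2 units (SE 0.10, adjusted p = 0.00402). With AM251 it differed from IDFP by -0.03 (adjusted p = 0.882 from limma) and from DMSO by 0.41 (adjusted p = 0.0241). Without AM251/IDFP mice 1 and 3 the latter difference was 0.44 and did not pass (adjusted p = 0.0654). The kinase GCN2 itself (Eif2ak4) was not tested.

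**Figure D4:**
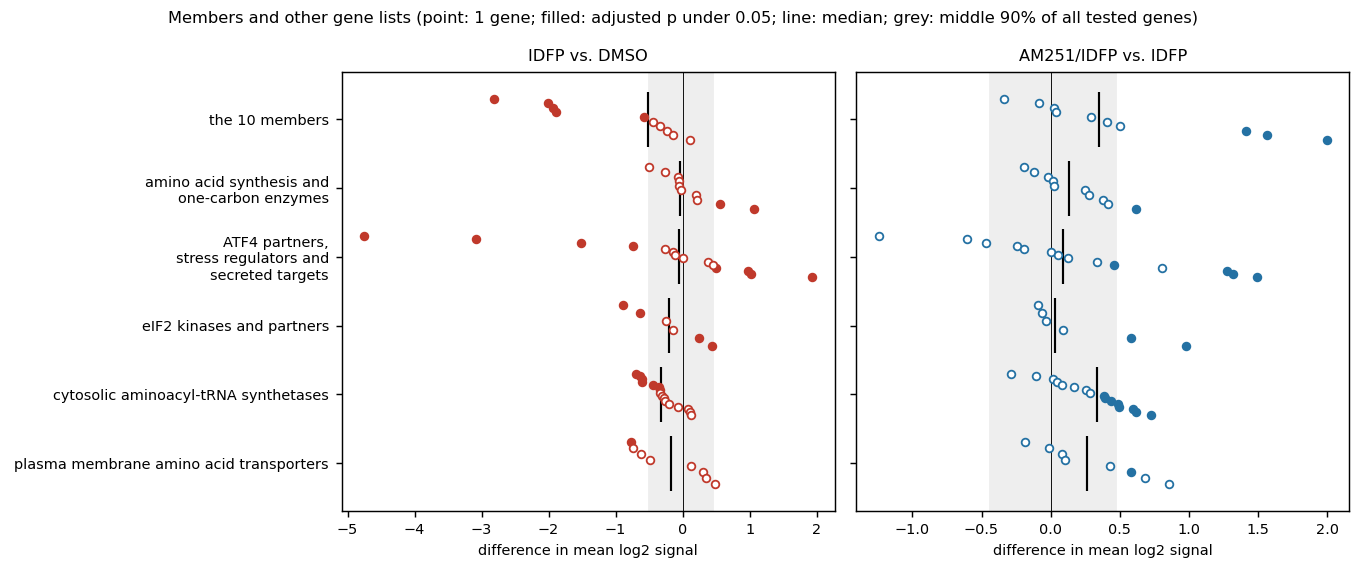
Differences in mean log2 signal for AM251/IDFP vs. IDFP and for IDFP vs. DMSO, shown for the 10 genes and of 5 other gene lists of the pathway. There is a point per tested gene (filled at an adjusted p under 0.05 from limma) and a line at the median. The grey band holds the middle 90% of all tested genes, from -0.50 to 0.45 for IDFP vs. DMSO, as single genes. Of the synthetases, 7 are filled for IDFP vs. DMSO and 8 for AM251/IDFP vs. IDFP.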

How the data were processed

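Liver RNA of 19 mice had been hybridized to 1-colour Illumina MouseRef-8 v2.0 arrays. The deposited values are linear intensities that the authors had background subtracted and quantile normalized in BeadStudio 3.2, and 30.1% of them are below 0. They were corrected with normexp in limma 3.58.1 (R 4.3.3) (offset 16), and their log2 values were quantile normalized again, which moved them by at most 0.00888. The offset shrinks fold changes of dim genes. A probe was called detected above 1.64 times the background SD, the root mean square of an array's values below 0. A gene was tested if most arrays of any group detected a probe of it, through its brightest detected probe, leaving 9346 genes. All groups entered the same lmFit and eBayes fit, with Benjamini-Hochberg adjustment over all tested genes and a threshold of 0.05. The number of arrays limits the precision.

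Percent reversal followed the study's formula, with delta-method errors. Promoter windows came from a RefSeq table of GRCm38.p6, in which all 10 genes had a window. Tables and plots were made with Python 3.11.15, pandas 2.3.3, numpy 2.4.6, scipy 1.17.1 and matplotlib 3.10.9. The steps were tested on simulated data. The members and gene lists were chosen with earlier results of these data known. Named genes were all 10 members, from each other list the up to 3 genes with the lowest p after IDFP, and the 3 nearest profiles to Atf4 and to Asns. Marker lists were fixed by cell type. A further table, without normalization, holds 38 columns that match no label of a mouse. It was not used, nor were the chips, so that chip effects were not tested. Alternatives were another offset, a floor of 10 units without correction, arrays scaled to their median, other detection filters, other uses of a gene's probes, a trended variance, weights per array, a separate fit for each comparison, blocking on replicate number, log2 signals for reversal, and leaving out each array. Leaving out AM251/IDFP mice 1 and 3 together was added after their marker signals were seen.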

Additional observations from a re-analysis of the deposited data

Results flagged for a closer look

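Of 30 groups (10 genes in 3 groups), 3 held a mouse far from the others of its group by Dixon's test on log2 signals, and chance flags about 1 in 20 groups. Psat1 in IDFP mouse 6 had a signal of 643 against 174 in the next mouse, a gap of 0.615 of the group's range on the log2 scale. Phgdh was high in the same mouse, with 114 against 60.4 in the next mouse (0.698 of the range). Phgdh was low in AM251/IDFP mouse 4, with 42.0 against 74.5 in the next mouse (0.717 of the range). Results for Phgdh without IDFP mouse 6, and for Atf4 and Chac1 without AM251/IDFP mouse 4, are given with the comparisons. IDFP mouse 6 also had the highest summed deposited markers of its group for Kupffer cells (5099, next 4278) and endothelium (8085, next 7179) and the lowest for neutrophils (696). The part of these in its Psat1 and Phgdh signals was not tested.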

How the results depend on the processing

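The falls of Asns, Chac1, Mthfd2, Psat1 and Atf4 after IDFP kept their direction and passed the test in all 12 alternatives run other than single left-out mice, and without each of the 19 mice. Leaving out AM251/IDFP mice 1 and 3 left 1 gene of the 10 higher with AM251 than with IDFP. It left 0 pairs that differed in reversal, where no pair could pass by itself with so few mice. It left 349 genes called for AM251/IDFP vs. IDFP (1011 otherwise) and 442 for AM251/IDFP vs. DMSO (923 otherwise). It also turned Atf5 (-0.066), Ddit3 (-0.047) and the reversal of Atf4 minus Psat1 (12.3 points), none of which had passed. With the mean of a gene's probes, Ddit3 was at -0.052 for AM251/IDFP vs. IDFP. Fits of only the groups compared called 450 genes for AM251/IDFP vs. DMSO. With log2 signals 1 pair differed in reversal, Asns minus Chac1 had an adjusted p of 0.104 (exact permutation test), Atf4 minus Asns was -0.457 and Atf4 minus Mthfd2 -2.50 points, and Chac1 was reversed by 24.9%. Chac1 passed for AM251/IDFP vs. IDFP with array weights (adjusted p = 0.0453 from limma) and in fits of only the groups compared (0.0416).

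Deviations from the group mean in mice with the same replicate number had r between -0.192 and 0.263 over 16 pairs, with 5 over 0.1. Mice of unlike number were not compared, so these values cannot show whether the number pairs mice. With the replicate number as a block, 525 genes were called for AM251/IDFP vs. IDFP, and the same 5, 3 and 1 of the 10 genes passed.

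Leaving out each mouse gave 0 to 1 genes lower (Sesn2 without IDFP mouse 1) and 3 to 5 higher for AM251/IDFP vs. IDFP, 667 to 1100 genes called for AM251/IDFP vs. IDFP (the lowest without AM251/IDFP mouse 3), 408 to 1198 for AM251/IDFP vs. DMSO, and 1 to 5 pairs that differed in reversal. Asns minus Chac1 no longer passed when any 1 of 10 mice was left out, with an adjusted p of up to 0.121, while Mthfd2 minus Chac1 passed without each. Values that turned were Atf5 (-0.068 to 0.20), Ddit3 (-0.065 to 0.10) and Trib3 (-0.17 to 0.035) for AM251/IDFP vs. IDFP, Atf4 (-0.27 to 0.0088) and Phgdh (-0.25 to 0.039) for AM251/IDFP vs. DMSO, and the reversals of Atf4 minus Asns (-0.132 to 32.5 points), Atf4 minus Mthfd2 (-0.165 to 32.9), Atf4 minus Psat1 (-17.4 to 6.82) and Asns minus Mthfd2 (-7.97 to 2.11), none of which had passed. Causes were not tested. Signals near background limit Phgdh, Sesn2 and the IDFP values of Mthfd2.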
